A study of Mus musculus with 8 samples.

Results

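The change in gene expression from day 0 to day 12 of osteogenic culture was compared between Def6-/- and WT calvarial osteoblastic cells. For each gene the day 12 minus day 0 change in WT cells was subtracted from the same change in Def6-/- cells, and this value is called the difference in change below. The comparison took all 8 libraries and every gene whose mean deposited CPM (read counts relative to library size) was at least 1 in any of the 4 groups, which left 12348 of 24421 gene rows. No measured difference was used to choose them. The cells came from the skull vault of newborn C57BL/6 mice, were released with collagenase and dispase, and were grown in medium without ascorbic acid. The 4 groups, with 2 libraries each, were WT day 0, WT day 12, Def6-/- day 0 and Def6-/- day 12, and the day 12 cells had been kept in medium with ascorbic acid and β-glycerophosphate. Per the study's methods the WT mice were littermates of the Def6-/- mice, which had been backcrossed to the C57BL/6 strain. The labels name no Cre line or cell type to which the loss is restricted, and they do not say which pups or cultures gave which library.

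Def6 encodes a guanine nucleotide exchange factor that is abundant in immune cells and that can act with interferon regulatory factors. Osteoblasts mature by laying down a collagen matrix, raising alkaline phosphatase and then mineralizing the matrix, while cells embedded in it become osteocytes that secrete the Wnt inhibitor sclerostin. Type-I interferon signals through its receptor to STAT and IRF factors, which bind interferon-stimulated response elements and switch on antiviral effector genes, collectively the interferon stimulated genes (ISGs). The difference in change asks whether these programmes moved by unequal amounts in the genotypes during differentiation, apart from any offset that was already there at day 0.

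The libraries held between 2414856 and 3482837 reads on genes, and values are given as normalized CPM, per 1000000 reads on genes after trimmed mean scaling (TMM). Def6 itself had 112 to 186 reads in each WT library and 0 to 2 in each Def6-/- library. The osteoblast markers Runx2, Sp7, Alpl and Ibsp were detected in all 8 libraries, and Bglap was at 0 in all 4 day 0 libraries. The WT day 0 libraries stood apart from each other. Their root mean square difference over genes was 0.78 on the log2 scale, against 0.38 to 0.43 within the other groups, and WT day 0 replicate 2 lay closer to both Def6-/- day 0 libraries (0.45 and 0.35) than to its own partner. Because this spread enters every difference in change, results are also given without each of these libraries. In each group 1 library had Y-linked reads and the other had at most 0.419 normalized CPM of them, so that sex was not aligned with genotype or day. With 2 libraries a group, p-values measure only the spread between these libraries. In bulk RNA, fewer cells of a type and less RNA per cell cannot be told apart.

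**Figure D1:**
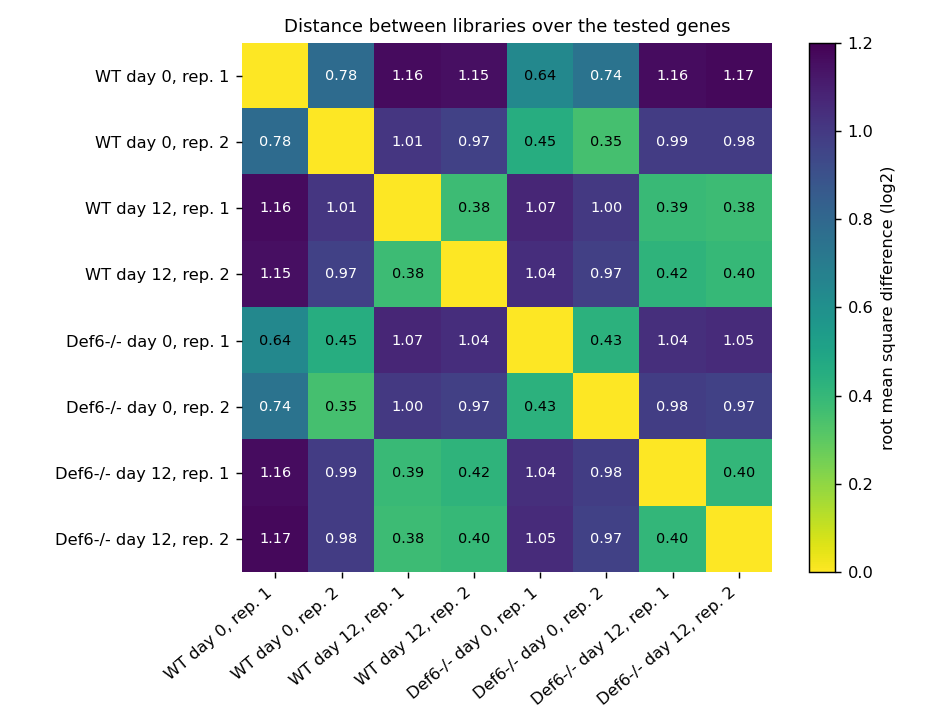
Root mean square log2 difference between each pair of the 8 libraries, over the tested genes whose values are whole reads. Pairs of the same day lie between 0.35 and 0.78 and pairs of different days between 0.97 and 1.17, and WT day 0 replicate 1 is the library farthest from the other day 0 libraries.

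The genotypes changed in the same direction for nearly all genes that passed the test. Across genes the changes had a Pearson r of 0.906, which is a description over 12348 genes of the same 8 libraries. By Benjamini-Hochberg adjusted p in the limma fit, 1564 genes (12.7%) rose and 697 (5.64%) fell in WT cells, and 1484 (12%) rose and 591 (4.79%) fell in Def6-/- cells. Of the 1564 genes that rose in WT, 1228 also rose in Def6-/- cells, 1562 had the same sign and 0 fell. Of the 697 that fell in WT, 416 also fell in Def6-/- cells, 690 had the same sign and 0 rose.

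At an unadjusted p under 0.05 and more than 1.2-fold, the difference in change was called higher in Def6-/- cells for 87 genes (0.705%) and lower for 52 genes (0.421%). These 139 genes are 1.13% of those tested, below the 5% that uniform p-values would give. With the Benjamini-Hochberg adjustment limma called 0 genes (0%), and the smallest adjusted p was 0.9998. On recovered reads edgeR's quasi-likelihood test also called 0 after adjustment and 143 at an unadjusted p, and DESeq2 called 0 and 45. In all 139 called genes the change in Def6-/- cells lay outside the WT change however day 0 and day 12 libraries were paired, as it did for 679 genes (5.5%) on the higher side and 559 (4.53%) on the lower side among all genes tested.

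Most called genes were weakly expressed, and about as many differed mainly at day 0 as at day 12. Of the 87 called higher, 55 had a mean under 10 normalized CPM, as had 33 of the 52 called lower, against 22.3% of all genes tested. The gap between genotypes was wider at day 12 in 39 of the 87 and in 25 of the 52, and wider at day 0 in the remainder. Both genotypes went up in 40 of the 87, both went down in 7, and in 40 the WT mean went down while the Def6-/- mean went up. Among the 52, both went up in 23, both went down in 6, and in 23 the WT mean went up while the Def6-/- mean went down.

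Counts depended on which WT day 0 library was used. Without WT day 0 replicate 1, 206 genes (1.67%) were called higher and 229 (1.85%) lower, with 0 by adjusted p. Without WT day 0 replicate 2, 1793 genes (14.5%) were called higher and 1540 (12.5%) lower, of which 1284 passed the adjusted p. Each of the 139 kept its sign in both fits, and 18 of them were called whichever of the 8 libraries was left out. In each of these fits 1 group is a single library that is assumed to vary like the other groups. Without WT day 0 replicate 2 the widest replicate pair no longer enters the estimate of the spread. The kept signs were fixed beforehand, because the changes of all 139 were apart in every pairing of libraries. Those 18 comprise 16 called higher, among them H2-T24, Sost, Col22a1, Plin1, Cfd, G0s2, Cadm1, Kcnk1 and Snhg14, and 2 called lower, Thrb and Uba7. Sost and Cfd held 0 reads in all day 0 libraries, so leaving out a day 0 library could not move their estimates. Both had passed the CPM filter only through the Def6-/- day 12 group.

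**Figure D2:**
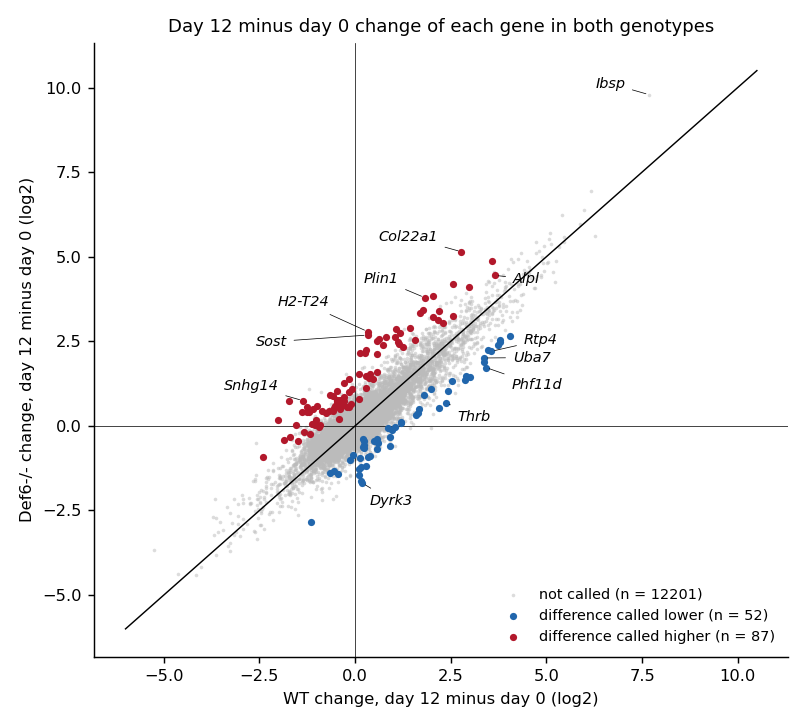
Change from day 0 to day 12 in WT (horizontal) and Def6-/- (vertical) cells, in log2, for each tested gene with whole reads. The line marks equal changes; 87 red genes lie above it and 52 blue genes below it, and Ibsp, the gene with the widest rise, is not called.

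Most interferon effector genes rose in both genotypes. In their difference in change 6 of 65 were called lower (0.421% over all genes) and 0 higher (0.705%). The effectors are 3 lists joined, namely antiviral proteins, the ISG15 conjugation system with interferon-responsive PARPs, and the interferon-inducible GTPases. Of the 65 members tested, 55 rose in WT cells and 40 in Def6-/- cells by adjusted p, and 0 fell in either. The median change was 2.23 (log2) in WT and 1.72 in Def6-/- cells. The difference in change was negative for 54 of the 65, against 47.9% of all genes, with a median of -0.48 beside 0.02 over all genes. The median was -0.50 when values under 3 reads were set to 3 reads. On recovered reads edgeR and DESeq2 each called only Uba7 of the 6, and edgeR's unadjusted p was 0.0578 for Rtp4, 0.0823 for Phf11d, 0.0941 for Gbp3, 0.119 for Ifi47 and 0.148 for Zbp1.

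The size of that median varied with the libraries. It was -0.37 without WT day 0 replicate 1, with 45 of the 65 negative. Without WT day 0 replicate 2 it was -0.71, with 51 negative. Over all 8 left-out libraries it ran from -0.75 to -0.22. At day 0 the median genotype difference of the 65 was -0.17 (log2) and at day 12 it was -0.63. The mean log2 level of the list was 2.50 and 2.71 in the WT and 2.18 and 2.69 in the Def6-/- libraries at day 0. At day 12 it was 4.71 and 5.04 in WT and 4.23 and 4.19 in Def6-/- cells. The genotypes thus overlapped at day 0 and did not at day 12.

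**Figure D3:**
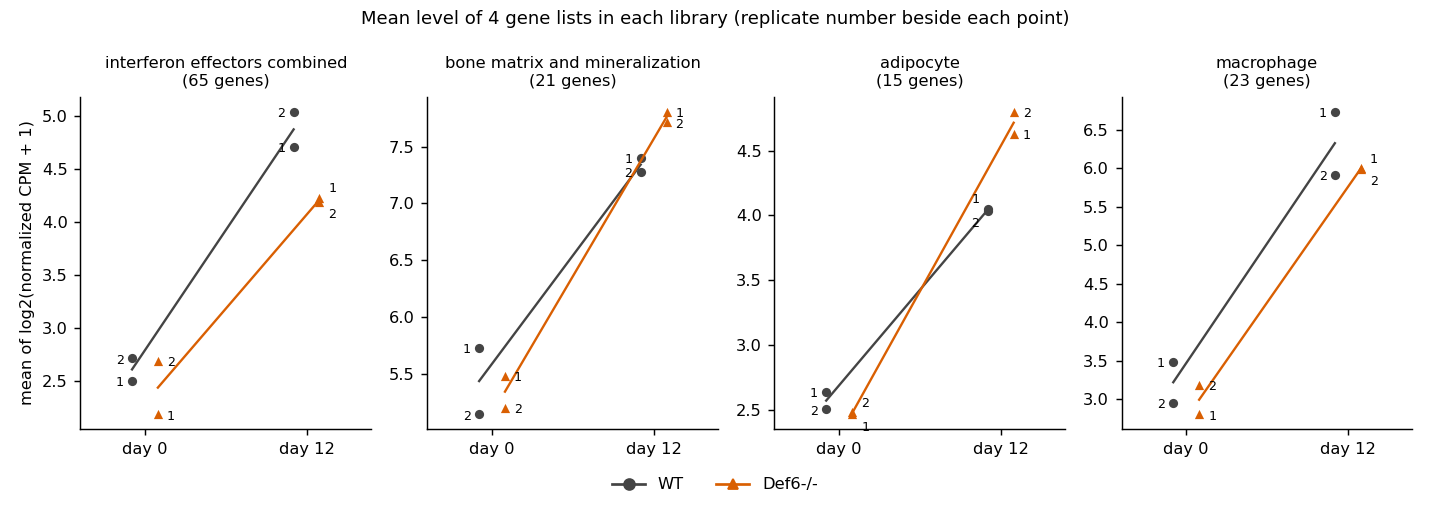
Mean log2(normalized CPM + 1) of 4 gene lists in each library, with the replicate number beside each point and lines joining group means. At day 12 both Def6-/- libraries lie below both WT libraries for the interferon effectors and above them for the bone matrix and adipocyte lists, and between them for macrophage genes.

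Uba7 (chr9:107975505-107984060), the enzyme that activates ISG15 for transfer to other proteins, was the called effector with the smallest p. It was at 1.18 and 1.41 normalized CPM in WT and 3.39 and 2.73 in Def6-/- libraries at day 0, and at 22.7 and 22.6 in WT and 16 and 14.5 in Def6-/- libraries at day 12. Both Def6-/- libraries were thus above WT at day 0 and below WT at day 12, with no overlap at either day. The genotype difference was 0.82 (log2) at day 0 and -0.54 at day 12, so the day 0 gap was the wider. That gap rests on 3 and 4 reads in WT and 9 and 8 reads in Def6-/- libraries. Uba7 rose in both genotypes, and the difference in change was -1.36 (SE 0.40, log2, limma unadjusted p = 0.00802). It was -1.29 without WT day 0 replicate 1 and -1.43 without replicate 2.

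Zbp1, a sensor of Z-form nucleic acids that can start cell death, was at 0.789 and 0.707 in WT and 0.753 and 0.681 in Def6-/- libraries at day 0. At day 12 it reached 7.17 and 9.63 in WT and 2.46 and 2.56 in Def6-/- libraries. The genotypes lay within 1 read of each other at day 0 and did not overlap at day 12. Zbp1 passed the CPM filter only through the WT day 12 group, where it was high. It rose in WT cells (2.42) and did not pass the adjusted p in Def6-/- cells (1.03), and the difference in change was -1.38 (SE 0.48, limma unadjusted p = 0.0194).

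Rtp4, an interferon-inducible chaperone of membrane receptors, was at 3.55 and 3.53 normalized CPM in WT and 3.76 and 3.41 in Def6-/- libraries at day 0. It reached 38.5 and 71.2 in WT and 25.5 and 15.8 in Def6-/- libraries at day 12. The 4 day 0 values were nearly equal and the day 12 values did not overlap. The difference in change of Rtp4 was -1.35 (SE 0.51, limma unadjusted p = 0.0261).

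The called GTPases were Gbp3, a guanylate binding protein, and Ifi47, an immunity-related GTPase. Gbp3 was at 1.97 and 3.53 in WT and 2.63 and 2.04 in Def6-/- libraries at day 0, and at 38.5 and 63.2 in WT and 20.5 and 14.9 in Def6-/- libraries at day 12. Ifi47 was at 0.395 and 0.353 in WT and 0.753 and 0.681 in Def6-/- libraries at day 0, and at 15.8 and 20.5 in WT and 9.03 and 8.96 in Def6-/- libraries at day 12. For both genes the day 12 values did not overlap, and Gbp3 overlapped at day 0. Their differences in change were -1.30 (SE 0.51) for Gbp3 and -1.25 (SE 0.45) for Ifi47. Without WT day 0 replicate 1, Gbp3 was -1.0 and no longer called. All 14 members of the GTPase list rose in WT cells and 10 rose in Def6-/- cells, and their median difference in change was -0.81, the lowest of the 3 lists, and -0.40 without Def6-/- day 0 replicate 2. Gbp, Irg, Oas and Ifit genes are families of similar copies, and reads may have been split among them.

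Phf11d, the remaining called effector, was at 0.395 and 0 in WT and 0.376 and 0.681 in Def6-/- libraries at day 0. It was at 9.47 and 14.2 in WT and 5.34 and 2.99 in Def6-/- libraries at day 12, again apart at day 12 only. Its difference in change was -1.69 (SE 0.58). Sp100, a nuclear body protein that is interferon-inducible but on none of the lists, gave -1.34 (SE 0.45). It rose in WT from 0.395 and 0.353 to 16.1 and 18.4, and in Def6-/- cells from 0.753 and 1.36 to 9.44 and 9.82.

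Several ISGs that the study names were not called. Irf7, an amplifier of the interferon response, gave -0.13 (SE 0.66), Ifit1 -0.19 (SE 0.77), Ifit2 -0.24 (SE 0.51) and Eif2ak2 (protein kinase R) -0.25 (SE 0.45), and Cxcl10 gave -0.80 (SE 0.70). Isg15, the ubiquitin-like modifier itself, gave 0.18. Irf7 was at 5.92 and 8.48 in WT and 1.13 and 4.09 in Def6-/- libraries at day 0, and at 29.0 and 56.5 in WT and 15.6 and 13.2 in Def6-/- libraries at day 12. Irf7 was lower in Def6-/- cells at each day without overlap, and it rose by 2.36 in WT and 2.22 in Def6-/- cells. Without WT day 0 replicate 1 the difference in change became positive for Irf7 (0.09), Ifit1 (0.34), Ifit2 (0.24) and Eif2ak2 (0.18). Without WT day 0 replicate 2 it was -0.36 for Irf7, -0.72 for Ifit1, -0.73 for Ifit2 and -0.69 for Eif2ak2. Mx1 stayed below the filter, with 8 and 5 reads in the WT and 1 read in each Def6-/- library at day 12.

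Promoter sequences were searched for the core of the interferon-stimulated response element, GAAA, then any 2 bases, then GAAA, on either strand (overlapping matches counted). The sequences run from 250 bases before to 50 after the RefSeq start in GRCm38.p6. A promoter was found for 9431 of the tested genes, of which 344 (3.65%) held the core. Among the interferon effectors 26 of 48 (54.2%) held it, including 8 of 9 GTPases. Among genes called lower it was 2 of 43 (4.65%), namely Gbp3 and Gpatch2, and among genes called higher 1 of 55 (1.82%), namely Fbxo7. The effectors with the core had a median difference in change of -0.53 (n = 26) and those without it -0.35 (n = 22), so that a negative median was found in both. The 318 genes with the core outside the effector lists had a median of 0.04. A match is a description of these letters and not evidence of binding.

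The 150 bases before the start are shown for Gbp3 (chr3:142559894-142560043, plus strand), called and with 2 overlapping matches, for Uba7 (chr9:107975417-107975566, plus strand), called and without a match, and for Isg15 (chr4:156200819-156200968, minus strand), not called and with 3 overlapping matches. Capitals mark the matches.
Gbp3: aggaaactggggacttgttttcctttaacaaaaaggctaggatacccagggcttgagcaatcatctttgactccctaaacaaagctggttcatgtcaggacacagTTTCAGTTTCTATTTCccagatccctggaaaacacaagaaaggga
Uba7: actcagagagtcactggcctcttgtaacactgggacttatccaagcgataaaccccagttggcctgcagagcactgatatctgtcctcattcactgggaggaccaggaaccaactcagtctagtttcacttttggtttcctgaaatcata
Isg15: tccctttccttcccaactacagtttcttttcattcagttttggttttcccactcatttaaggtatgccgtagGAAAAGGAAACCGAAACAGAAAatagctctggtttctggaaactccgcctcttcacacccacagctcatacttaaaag

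The upstream parts of the interferon system showed smaller values. The list of interferon receptors, Janus kinases, STATs and IRFs had 19 members tested, 0 called and a median difference in change of -0.17. The receptor genes Ifnar1 and Ifnar2 gave 0.04 (SE 0.24) and 0.06 (SE 0.32). Nucleic acid sensors had 12 of 13 members negative, a median of -0.27 and 0 called. That median was -0.02 without Def6-/- day 0 replicate 2, and -0.06 without WT day 0 replicate 2, where 9 of 13 were negative. Genes of MHC class I presentation had 9 of 17 positive, a median of 0.03 and 1 called, H2-T24.

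H2-T24, a non-classical MHC class I gene at chr17:36005695-36020560, had the smallest p of all genes. It was at 3.55 and 4.95 normalized CPM in WT and 0.376 and 0.341 in Def6-/- libraries at day 0, the latter being 1 read in each. At day 12 it was at 4.02 and 7.54 in WT and 8.62 and 8.11 in Def6-/- libraries. Def6-/- libraries were therefore far below WT at day 0 and above it at day 12. The difference in change was 2.45 (SE 0.52, limma unadjusted p = 0.00117), and the edgeR test gave an unadjusted p of 0.000954. H2-T24 lies within 20 Mb of Def6, a stretch that held 4 called genes among 397 tested (1.01%), beside 1.14% elsewhere. H2 genes share similar sequence, and reads may have been split among copies.

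Of 21 bone matrix and mineralization genes, 3 were called higher in their difference in change (0.705% over all genes) and 0 lower (0.421%). By adjusted p, 14 rose in WT and 15 in Def6-/- cells, and 1 fell in each. The difference in change was positive for 17 of the 21 with a median of 0.57, beside 0.02 over all genes. The median was 0.24 without WT day 0 replicate 1, with 11 of 21 positive, and 0.70 without replicate 2, with 20 positive. At day 12 the mean log2 level of the list was 7.4 and 7.28 in WT and 7.81 and 7.71 in Def6-/- libraries, with no overlap, and at day 0 the genotypes overlapped.

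Alpl, tissue-nonspecific alkaline phosphatase, was at 16.2 and 20.9 in WT and 13.2 and 16.4 in Def6-/- libraries at day 0. It was at 238 and 246 in WT and 389 and 299 in Def6-/- libraries at day 12. The genotypes overlapped at day 0 and were apart at day 12. Alpl rose by 3.65 (log2) in WT and 4.45 in Def6-/- cells, and the difference in change was 0.80 (SE 0.31, limma unadjusted p = 0.0302). It was 0.97 without WT day 0 replicate 1 and 0.62 without replicate 2, and ran from 0.61 to 0.99 over all left-out libraries. On recovered reads edgeR called Alpl (unadjusted p = 0.0312) and DESeq2 did not.

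Bglap (osteocalcin) and its near-identical neighbour Bglap2 held 0 reads in all 4 day 0 libraries. At day 12 Bglap was at 6.31 and 7.54 normalized CPM in WT and 18.9 and 14.1 in Def6-/- libraries. Bglap2 was at 5.17 and 4.61 in WT and 23.4 and 12.8 in Def6-/- libraries. Neither overlapped between genotypes at day 12. The differences in change, 1.13 (SE 0.48) for Bglap and 1.64 (SE 0.54) for Bglap2, are for such genes only the day 12 genotype difference on the log2(normalized CPM + 1) scale, since a ratio to 0 reads is not defined. On recovered reads edgeR called neither, which the 0 reads at day 0 fixed beforehand. Of the 87 genes called higher 5 were of this kind, Adipoq, Bglap, Bglap2, Cfd and Sost, and 0 of the 52 called lower.

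Ibsp, which encodes bone sialoprotein, had the widest rise of any tested gene in both genotypes. It was at 10.3 and 0.707 in the WT and 1.51 and 1.02 in the Def6-/- libraries at day 0, and at 1262 and 649 in WT and 2485 and 1587 in Def6-/- libraries at day 12. WT day 0 replicate 1 was high beside the other 3 day 0 libraries. The difference in change was 2.09 (SE 1.03, limma unadjusted p = 0.0738), and it was 0.73 without WT day 0 replicate 1 and 3.46 without replicate 2. Smpd3 (0.86), Ifitm5 (0.82), Phospho1 (0.57) and Pth1r (0.60), the last being the receptor for parathyroid hormone, were positive and not called. The matrix proteins Postn (0.07), Sparc (0.18) and Omd (0.37) were nearer 0, as was the phosphate transporter Slc20a1 (0.00), which fell in both genotypes.

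Sost, which encodes sclerostin and lies at chr11:101962458-101967015, was the called osteocyte gene. It had 0 reads in all day 0 libraries, 2 and 0 reads in the WT and 14 and 12 reads in the Def6-/- libraries at day 12. The few WT reads lay far below both Def6-/- values. The fitted difference in change of 2.36 (SE 0.58) depended on the pseudocount, being 3.02 with 0.5 and 0.98 with 5. That edgeR did not call Sost was fixed beforehand by the 0 reads at day 0. Sost passed the CPM filter only through the Def6-/- day 12 group, where it was high. The osteocyte list had 9 members tested, 6 of them positive, with a median of 0.20. It was 0.02 without WT day 12 replicate 2 and 0.94 without WT day 0 replicate 2. The list members Dmp1 (0.07) and Phex (0.59) rose in both genotypes and were not called.

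Among 14 osteoblast transcription factors Tcf7 and Dlx5 were called higher and the median was 0.05. On recovered reads edgeR called Tcf7 (unadjusted p = 0.0482) and Dlx5 (unadjusted p = 0.0435), and DESeq2 called neither. Tcf7, a nuclear effector of Wnt signals, went from 3.55 and 4.59 to 9.76 and 12.6 in WT and from 4.14 and 4.09 to 28.7 and 20.9 in Def6-/- libraries. The genotypes overlapped at day 0 and not at day 12, and the difference in change of Tcf7 was 1.06 (SE 0.42). Dlx5, a homeobox factor of the osteoblast lineage, gave 0.74 (SE 0.32), with 20.7 and 18.4 in WT and 29.1 and 29.0 in Def6-/- libraries at day 12. Runx2, the master regulator of the lineage, gave -0.01 (SE 0.43), with 0.51 without WT day 0 replicate 1 and -0.53 without replicate 2.

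Collagen and crosslinking genes had a median of 0.00 over 32 members, and 2 minor collagens were called higher. Col22a1 went from 2.37 and 0.707 to 13.2 and 18 in WT, and from 0.753 and 0.341 to 77.2 and 36.7 in Def6-/- libraries. Its day 12 values did not overlap, it rose in both genotypes, and the difference in change was 2.37 (SE 0.65, limma unadjusted p = 0.00557). Col13a1, a transmembrane collagen, gave 1.3 (SE 0.53) and was not called by edgeR. Of 37 Wnt and BMP pathway genes, with a median of -0.09, only Dkk1, a secreted Wnt inhibitor, was called higher, with 1.18 (SE 0.50) from 5.74 and 3.77 normalized CPM in WT and 8.21 and 8.54 in Def6-/- libraries at day 12. With a replicate block within genotype Dkk1, Dlx5 and Bglap were no longer called.

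All 15 adipocyte genes tested, of 20 on the list, had a positive difference in change, and 3 were called higher (0.705% over all genes). Adipoq and Cfd, 2 of these, passed the CPM filter only through the Def6-/- day 12 group, where they were high. The filter thus favoured their calls and their positive signs. On recovered reads neither edgeR nor DESeq2 called any of the 3. For Adipoq and Cfd this was fixed beforehand, because a change from 0 reads cannot be estimated. For Plin1 edgeR's unadjusted p was 0.0847. The median of the 15 was 0.58, or 0.51 when values under 3 reads were set to 3 reads, and the range was 0.02 to 1.97. By adjusted p, 8 rose in WT and 11 in Def6-/- cells. The median was 0.51 without WT day 0 replicate 1, with 13 of 15 positive, and 0.64 without replicate 2, with 14 positive. Its mean log2 level was 4.05 and 4.04 in WT and 4.63 and 4.80 in Def6-/- libraries at day 12, while day 0 values ran from 2.47 to 2.64 over both genotypes.

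Plin1, the perilipin that coats fat droplets, went from 0.395 and 0 to 3.44 and 2.93 in WT and from 0 and 0 to 10.7 and 15.4 in Def6-/- libraries. The genotypes were apart at day 12, Plin1 rose in both, and the difference in change was 1.97 (SE 0.53, limma unadjusted p = 0.00516). Adipoq (adiponectin) was at 2.30 and 2.51 in WT and 7.39 and 12.8 in Def6-/- libraries at day 12. Cfd (adipsin) was at 0.574 and 0.419 in WT and 3.28 and 6.4 in Def6-/- libraries. Neither overlapped at day 12, and both were at 0 at day 0. G0s2, an inhibitor of fat breakdown that is on no list, gave 1.82 (SE 0.51), from 7.89 and 11 in WT and 1.13 and 3.41 in Def6-/- libraries at day 0 to 38.2 and 44.0 in WT and 42.7 and 43.1 in Def6-/- libraries at day 12. The genotypes of G0s2 were apart at day 0 and overlapped at day 12, unlike the adipocyte genes above. Pparg (0.48) and Cebpa (0.02), the transcription factors of fat cells, rose in both genotypes and were not called.

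**Figure D4:**
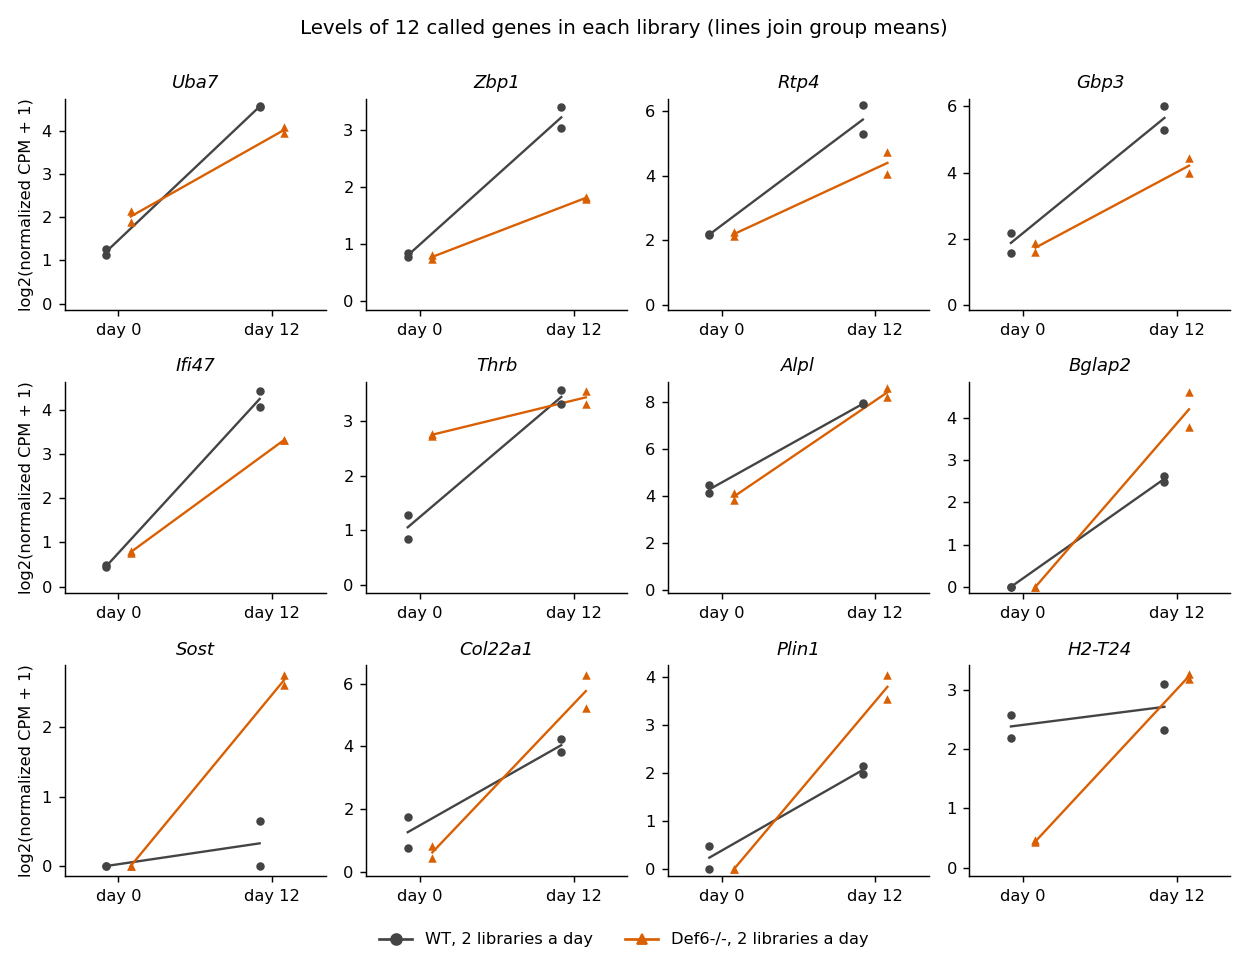
Level of 12 called genes in each library, as log2(normalized CPM + 1), with lines between group means. Uba7, Thrb and H2-T24 differ between genotypes at day 0, and Thrb and H2-T24 differ less or overlap at day 12, while Zbp1, Rtp4, Gbp3, Alpl, Bglap2, Sost, Col22a1 and Plin1 lie farther apart at day 12 than at day 0.

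Thrb (chr14:17660261-18038090), the beta receptor for thyroid hormone, had the smallest p among genes called lower. It was at 0.789 and 1.41 in WT and 5.65 and 5.79 in Def6-/- libraries at day 0, and at 8.90 and 10.9 in WT and 10.7 and 8.96 in Def6-/- libraries at day 12. The genotypes were far apart at day 0 and overlapped at day 12. Thrb rose in WT (2.38) and did not pass the adjusted p in Def6-/- cells (0.68), and the difference in change was -1.70 (SE 0.44, limma unadjusted p = 0.00416). Snhg14, the host transcript of imprinted small nucleolar RNAs, also had a gap at day 0, where 3.16 and 3.18 in WT met 0.753 and 0.681 in Def6-/- libraries at day 0. At day 12 Snhg14 was at 0.861 and 0.419 in WT and 2.05 and 1.71 in Def6-/- libraries, which are 1 to 5 reads.

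The remaining genes with the smallest p have varied roles. Among those called higher, Kcnk1 (a potassium channel) gave 1.59, Cadm1 (a cell adhesion molecule) 1.47, Ccdc101 1.64, Parm1 1.81 and Thsd1 2.02. Cadm1 went from 7.89 and 7.42 to 20.7 and 23.9 in WT and from 4.14 and 6.47 to 56.2 and 36.3 in Def6-/- libraries, and it rose in both. Among those called lower, Neto2 (a receptor auxiliary subunit) gave -0.87, Inpp4b (a phosphoinositide phosphatase) -1.22, Fam78a -1.51, Tshz3 -1.25, Dyrk3 (a protein kinase) -1.88 and Trdmt1 (an RNA methyltransferase) -1.28. Neto2, the best measured of these, went from 11.8 and 13.1 to 53.7 and 50.2 in WT and from 16.6 and 17.0 to 34.5 and 40.1 in Def6-/- libraries, with no overlap at either day.

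**Figure D5:**
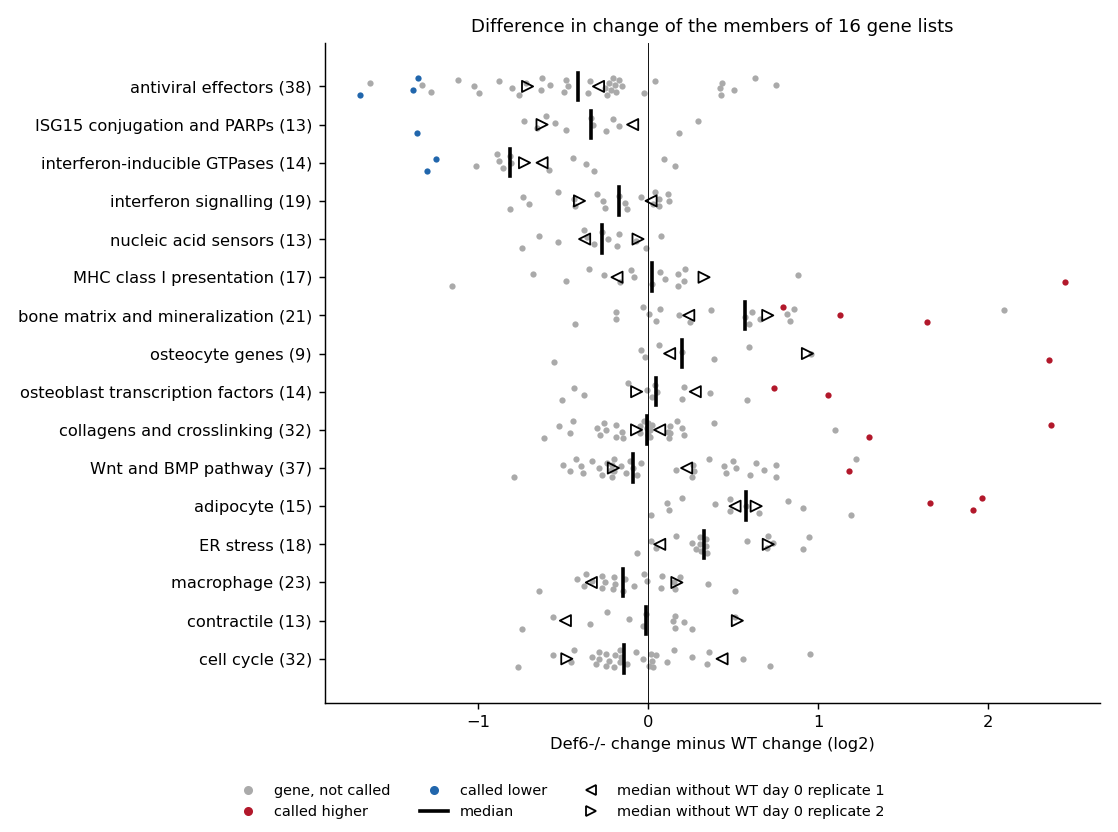
Difference in change (log2) of each member of 16 gene lists, with the number of members in brackets, the median as a bar and the medians without either WT day 0 library as open triangles. The triangles lie on opposite sides of 0 for the interferon signalling, MHC class I, osteoblast transcription factor, collagen, Wnt and BMP, macrophage, contractile and cell cycle lists, and on the same side for the antiviral, ISG15 and PARP, GTPase, nucleic acid sensor, bone matrix, osteocyte, adipocyte and ER stress lists.

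For several lists the sign of the median differed between the fits without either WT day 0 library. The median of 13 contractile genes was -0.01, and it was -0.49 without WT day 0 replicate 1 and 0.53 without replicate 2. The median of 32 cell cycle genes was -0.14, with 0.44 and -0.48 in the same fits. Tagln (transgelin), an actin-binding protein of contractile cells, was at 8848 and 2497 in WT and 3410 and 2975 in Def6-/- libraries at day 0, while the 4 day 12 libraries held 765 to 834. WT day 0 replicate 1 was the high value, and the difference in change of Tagln was 0.51 with both libraries, -0.40 without it and 1.42 without replicate 2. ER stress genes were positive in 17 of 18 members with 0 called, and their median of 0.33 was 0.07 without WT day 0 replicate 1 and 0.71 without replicate 2.

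Macrophage genes also rose in culture. In the 23 members tested with whole reads, 22 rose in WT and 21 in Def6-/- cells, with a median change of 3.42 and 3.31, and the median difference in change was -0.15 with 0 called. The markers Ptprc, Adgre1, Csf1r, Cd14, Itgam and Fcgr3 were left out because their deposited values were not whole reads. The summed level of all 25 whole-read markers was 3833 to 7405 normalized CPM in WT and 4172 to 4635 in Def6-/- libraries at day 12, and 309 to 508 and 246 to 375 at day 0. Defining markers at 0 were Cd163 and Ccr2 in Def6-/- cells at day 0 and none in the other groups. The day 12 genotypes overlapped for these genes, WT replicate 1 being the highest, whereas the interferon effectors were highest in WT replicate 2. Their part in the interferon result was not tested. Osteoclast, endothelial and skeletal muscle lists had only 4, 2 and 2 members tested and 0 called. The osteoclast markers Ctsk, Acp5 and Itgb3 were left out because their values were not whole reads. Chondrocyte genes had a median of 0.10 over 15 members with 0 called. Glycolysis and hypoxia genes were positive in 17 of 21 members with a median of 0.30, which was -0.01 without Def6-/- day 12 replicate 1 and 0.65 without WT day 0 replicate 2. Medians were 0.02 over 21 chemokine and cytokine genes, -0.01 over 4 MHC class II genes, -0.10 over 21 cholesterol synthesis genes, -0.07 over 12 metallothionein and antioxidant genes and -0.03 over 19 AP-1 and early response genes. None of the members of these 6 lists was called.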

How the data were processed

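RNA-seq of 8 libraries, 2 in each of 4 groups, was used. The authors selected poly-A RNA, used HISAT2 for alignment (mm10) and HTSeq for counting, and deposited CPM made with edgeR (the submitters' processing notes also name fastp). Annotation and strand setting are not given in the sources used here. CPM were taken relative to reads on genes (28.8% to 35.3% of reads) times TMM factors, and log2(value + 1) was fitted with limma 3.58.1 (4 group means, trend) in R 4.3.3. A gene entered if any group's mean deposited CPM reached 1, so that a weak gene could enter through its highest group alone. Whole reads were recovered for 99.957% of positive values (within 0.02 of a read; 99.93% in WT day 12 replicate 1, whose step is close to a round decimal, so that the recovery is less certain there) and tested with edgeR 4.0.16 and DESeq2 1.42.0. The 9 genes with other values were left out of lists and names. Named genes were Def6, genes the study names, the 12 smallest p-values in each direction, and, in each list, called members and the smallest p in each direction. Other genes, and those of the promoter search, were named after their values were seen. The comparison and 27 gene lists were chosen with earlier results of these data known. Positions are from GENCODE M21 (GRCm38). The fit was tested on simulated data. Leaving out libraries, other scalings, pseudocounts, filters and a replicate block were tried.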

Additional observations from a re-analysis of the deposited data

Results flagged for a closer look

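In 3 named genes each library of WT moved one way and each library of Def6-/- the other way between day 0 and day 12, and this opposition was not tested beyond the limma difference in change, which no adjusted p passed. Snhg14 had a difference of 2.10 (log2), Parm1 of 1.81 and Trdmt1 of -1.28. All 3 were under 10 normalized CPM in every library. Snhg14 and Parm1 were lower in WT and higher in Def6-/- cells at day 12, and Trdmt1 was the reverse.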

How the results depend on the processing

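Each of the 139 called genes kept its sign wherever it was tested, but counts moved. In the fits without a library this sign was fixed beforehand, because the changes were apart in every pairing of libraries. Against 87 higher and 52 lower, there were 174 and 161 without a filter, 50 and 34 with a mean CPM of at least 3, and 36 and 9 with DESeq2, whose calls were higher in 80.0%. Leaving out libraries gave 46 to 1793 higher, 32 to 1540 lower and 0 to 1284 by adjusted p, the upper ends without WT day 0 replicate 2. Bone matrix medians then ran from 0.24 to 0.70, and the median of adipocyte genes was 0.34 with a pseudocount of 5. Some signs turned. The median of ISG15 conjugation and PARPs went from -0.34 to 0.025 without Def6-/- day 0 replicate 2 (lowest -0.73), the median of interferon signalling to 0.018 without WT day 0 replicate 1 (lowest -0.40), the median of macrophage markers to 0.17 without WT day 0 replicate 2, 0.26 without WT day 12 replicate 1 and 0.07 without Def6-/- day 0 replicate 2 (lowest -0.53), and Runx2 from -0.01 to 0.51 without WT day 0 replicate 1 (lowest -0.53). The cause was not tested. A replicate block gave 108 higher and 62 lower genes and a block within genotype 89 and 51, with 96 of the 139 kept. Same-numbered libraries correlated at 0.0005 to 0.33 over the 6 pairs of groups, and the labels state no pairing, although within each genotype the same number held the Y-linked reads at both days. The scalings (TMM over all gene rows, chosen after seeing the data, DESeq2 size factors and CPM as deposited) gave 55.7%, 61.6% and 59.8% higher calls against 62.6%, and 0 genes by adjusted p. Read depth and 2 libraries a group limit what can be seen for weak genes.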
